A study of Mus musculus with 6 samples.

Results

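Non-cycling basal keratinocytes are the cells of the deep layer of embryonic epidermis that carried next to no mitotic transcripts when they were captured. They were chosen by counts of unique molecular identifiers (UMIs, single captured transcripts) in each cell, and 1867 of 41594 barcodes in 6 libraries met the rule. E14.5 LOF held 519 of them, the E14.5 controls 223 and 334, E13.5 LOF 205, and the E13.5 controls 186 and 400. A cell had to show 500 genes or more, with no more than 10% of its UMIs mitochondrial. It needed at least 10 UMIs of Krt5, Krt14, Krt15 and Epcam together and at most 5 of the collagen genes Col1a1, Col1a2 and Col3a1, and these limits define the keratin gate of 7483 cells. It could carry at most 3 UMIs of Krt1, Krt10 and Krtdap, which mark differentiation, at most 2 of the placode genes Dkk4, Shh, Edar, Bmp2, Lhx2 and Fgf20, and at most 1 of the cycling genes Top2a, Mki67, Ube2c and Cdk1. These 20 genes are no findings below.

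The basal layer rests on a basement membrane, to which its cells are fixed by hemidesmosomes, and its keratins Krt5 and Krt14 are driven by the transcription factor p63. Daughters that leave the layer switch these keratins for Krt1 and Krt10 and build the barrier. In the embryo an outer sheet called the periderm covers the epidermis until the barrier forms, and Wnt signals from the epidermis instruct the dermis beneath.

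Dorsolateral and flank skin of CD1 mouse embryos was pooled over 3 to 4 embryos per library, dissociated with trypsin, sorted and profiled by droplet sequencing of the 3′ ends of transcripts. The loss-of-function (LOF) embryos, PDGFRalphaCreER(Lo);beta-catfl/fl;mTmG, carried floxed beta-catenin, a Cre recombinase that tamoxifen activates in cells expressing Pdgfra, and a reporter that changes from membrane tdTomato to membrane GFP on recombination. They received tamoxifen at E11.5 and were taken at E14.5 (1 library) and E13.5 (1 library). The controls are labelled WT, with 2 libraries at E14.5 and 2 at E13.5, and the labels record no tamoxifen for them, so genotype and drug cannot be told apart. Pdgfra marks the dermis, so basal keratinocytes are neighbours of the cells the Cre was aimed at.

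The reporter rows of the matrices disagreed with the controls' label. tdTomato was at 76.6 CPM (counts per 1000000 of the members' UMIs) in E14.5 LOF members, 54.2 and 309 CPM in E14.5 controls, with 1059 CPM in E13.5 LOF members, and 1057 and 901 CPM in E13.5 controls. In E14.5 control replicate 1 the share of members with a tdTomato UMI was 17.5% (median 10488 UMIs per cell), against 20.4% of collagen-rich cells (median 10794), and the levels were 54.2 CPM in members and 20.8 CPM in collagen-rich cells. In that library 39.2% of the members' tdTomato UMIs lay in 5 cells. Its share was not above that of collagen-rich cells while its level was, and it is counted neither as carrying nor as lacking the transcript. In the other 5 libraries 24.3% to 97.1% of members carried it, against 2.53% to 4.66% of collagen-rich cells, where the median depths were 8398 to 12553 UMIs in members and 8099.5 to 12040 UMIs in collagen-rich cells. Collagen-rich cells have at least 50 collagen UMIs and fewer than 10 of the gate's keratin genes. At least 3 of the 4 libraries labelled WT thus carried tdTomato transcripts in their members. eGFP stayed at 3.81 CPM in E14.5 LOF members, 0.903 and 1.81 CPM in E14.5 controls, with 4.27 CPM in E13.5 LOF members, and 1.88 and 1.13 CPM in E13.5 controls, which was 2 to 16 UMIs a library. Outside the keratin gate eGFP reached 211 CPM in E14.5 LOF and 258 CPM in E13.5 LOF, but also 56.5 and 90.8 CPM in replicate 2 of the E14.5 and E13.5 controls. Fitted over stages in the controls, tdTomato in members had a log2 fold change of −2.29 (SE 0.90, edgeR quasi-likelihood adjusted p = 0.50).

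**Figure D1:**
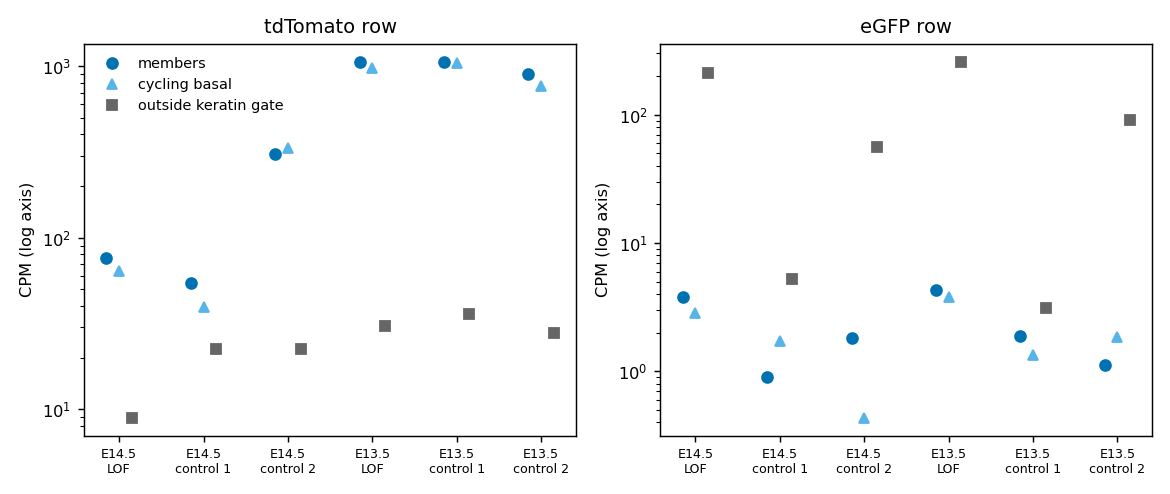
CPM of the tdTomato and eGFP rows in members, cycling basal cells and cells outside the keratin gate, 1 point per class and library on log axes. tdTomato in members lies at 901 to 1059 CPM in the 3 E13.5 libraries and at 54.2 to 309 CPM in the 3 E14.5 libraries, and eGFP is below 5 CPM in the members of each library.

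Libraries held 53461986 to 86446575 UMIs and members 8398 to 12553 UMIs per cell at the median. Library-wide marker genes (Gm42418, Hist1h1b, Gstp1 and Pgk1) placed E14.5 control 1 with E14.5 LOF, E13.5 control 1 with E13.5 LOF, and the 2 control replicates 2 together, so stages share an inferred batch in replicates 2 alone. Between library pairs 45 to 103 barcodes recurred, and at most 1 among members. A doublet caller marked 2 members in E14.5 LOF and 3 in E14.5 control replicate 2, and none in the others. Replicate libraries come from separate pools only as far as their labels say, so p-values measure the spread between these libraries.

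Trp63, which encodes p63 and was not used by the rule, bore out the label. It was at 248 CPM in E14.5 LOF members, 261 and 196 CPM in E14.5 controls, with 221 CPM in E13.5 LOF members, and 230 and 171 CPM in E13.5 controls. With each cell thinned to 3000 UMIs, 39.4% to 53.6% of members carried Trp63, against 1.20% to 5.34% of cells outside the gate. Differentiating cells of the gate averaged 165 CPM and cycling basal cells 222 CPM of Trp63, over 6 libraries, against 221 CPM in members. The level did not pass the test between stages (log2 0.25, SE 0.22, edgeR adjusted p = 0.69) or genotypes (log2 0.13, SE 0.16, edgeR adjusted p = 0.99). Summed over 11 dermal markers, members held 729 CPM in E14.5 LOF, 806 and 798 CPM in E14.5 controls, with 435 CPM in E13.5 LOF members, and 461 and 471 CPM in E13.5 controls, against 5129 to 13419 CPM outside the gate. These markers include Col1a1, Col1a2 and Col3a1, which the rule limits in members. The gap to cells outside the gate was thus partly set by the rule. Dermal transcripts in members varied with stage, and their part in the stage values was not tested. Schwann, macrophage, melanoblast and endothelial marker lists each summed to at most 20.6 CPM in the members of every library, with the endothelial marker Emcn at 0. The Merkel cell list, which holds Krt8 and Krt18, summed to 8.80 to 33.0 CPM in members, against 16.9 to 28.1 CPM outside the gate. In E13.5 LOF and E14.5 control replicate 2 its sum was higher in members than outside the gate.

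The share of members in the keratin gate was 24.5% in E14.5 LOF, 15.5% and 26.2% in E14.5 controls, 30.1% in E13.5 LOF, and 19.4% and 39.5% in E13.5 controls. Controls of a stage differed from each other by more than the LOF library differed from the nearer of them. Depth moves this share, because a deeper cell is likelier to show a cycling UMI. With every cell of the gate thinned to 3000 UMIs, the share with no cycling UMI was 33.1% in E14.5 LOF, 30.1% and 42.0% in E14.5 controls, 45.2% in E13.5 LOF, and 32.0% and 46.1% in E13.5 controls. At each stage the LOF share lay between the controls. On the cycling limit many cells lay close to the edge, with 715 cells at 1 cycling UMI just inside and 378 at 2 just outside, and on the keratin limit 44 cells lay at 10 UMIs inside and 44 at 9 outside.

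**Figure D2:**
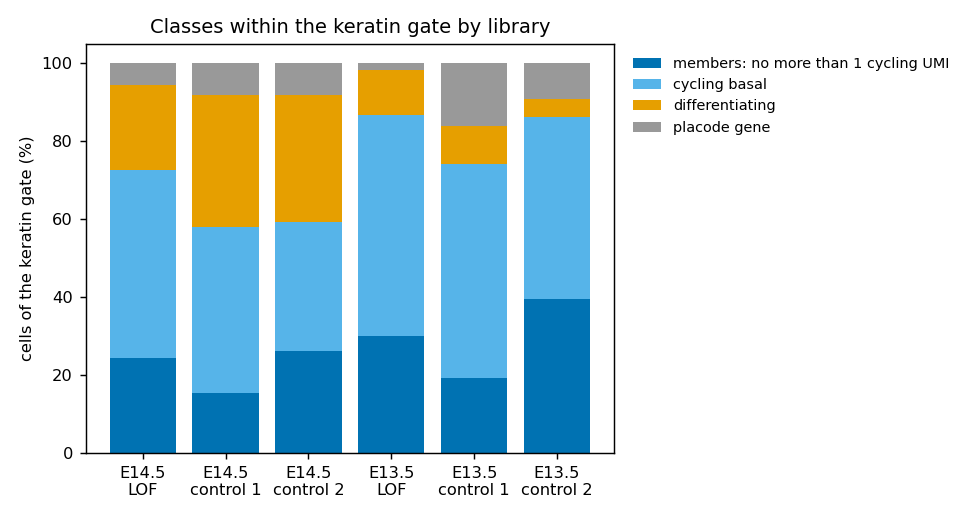
Share of keratin-gate cells (percent) in each class, by library, as stacked bars. Members make up 24.5% in E14.5 LOF and 15.5% to 39.5% in the controls, with the higher control share in replicate 2 at both stages.

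Absence of mitotic transcripts did not mean absence of S phase transcripts. Of members thinned to 3000 UMIs, 77.3% in E14.5 LOF, 78.9% and 81.8% in E14.5 controls, 70.2% in E13.5 LOF, and 78.5% and 77.2% in E13.5 controls carried at least 3 UMIs of 20 S phase genes. Cycling basal cells of the same libraries reached 79.5% to 85.7%, and cells outside the gate 55.1% to 60.2%. Dut, which keeps uracil out of new DNA, was at 205 CPM in E14.5 LOF members, 225 and 256 CPM in E14.5 controls, with 207 CPM in E13.5 LOF members, and 252 and 253 CPM in E13.5 controls. The histone mRNA binder Slbp ranged over 148 to 204 CPM and the chromatin remodeller Hells over 90.9 to 206 CPM. Of the Cdkn1 and Cdkn2 cell cycle inhibitors Cdkn1c was the most abundant, at 158 CPM in E14.5 LOF members, 151 and 143 CPM in E14.5 controls, with 404 CPM in E13.5 LOF members, and 242 and 181 CPM in E13.5 controls, with the E13.5 LOF library above the rest. Cdkn1a had 6.19 CPM in E14.5 LOF members, 4.52 and 19.2 CPM in E14.5 controls, with 20.2 CPM in E13.5 LOF members, and 2.83 and 2.53 CPM in E13.5 controls, but 1 cell held 41 of its 52 UMIs in E13.5 LOF and 5 cells held 71.7% in E14.5 control replicate 2. Members thus had at most 1 UMI of the 4 mitotic genes, and most still held replication genes.

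E14.5 was compared with E13.5 in the 4 control libraries, to ask how the basal layer changes over a day in which the epidermis begins to stratify. Of 9682 genes tested outside the rule, 5 rose at E14.5 and none fell, which is 0.0516% of the genes in the rising direction and 0% in the falling one (edgeR quasi-likelihood, adjusted p under 0.05). An unadjusted p under 0.05 was met by 979 genes. Other settings called falls too, with 62 genes higher and 29 lower by DESeq2, 21 and 10 with its size factors, 391 and 200 with the inferred batch as a term, and 298 and 138 with a replicate block. Leaving out 1 library raised the count of calls. It was 84 when the dropped library was E13.5 control replicate 1 and 36 when it was the second E13.5 control. At E14.5 it was 117 when control replicate 1 was dropped, and 1760 for replicate 2. The 5 genes were Dmkn, Krt4, Serpinb5, S100a6 and Lgals7. Dmkn, Krt4 and Serpinb5 passed the filter on low counts only through their E14.5 level, so their calls could only be rises. In the E13.5 controls Dmkn had 6 UMIs and 1 UMI, Krt4 had 3 and 7 UMIs, and Serpinb5 had 8 UMIs in each. Dmkn, Serpinb5 and Lgals7 were spread over many members, while most Krt4 and S100a6 UMIs at E14.5 lay in very few cells.

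Serpinb5 (chromosome 1, mm10), the protease inhibitor maspin of the epidermis, Lgals7 (chromosome 7), galectin-7 of stratified epithelia, and Dmkn (chromosome 7), the secreted dermokine of differentiating epidermis, were the spread genes. Their 250 bases upstream of the annotated starts (RefSeq, GRCm38.p6, plus strand in each) are shown because these genes rose across the layer. TGANTCA, with N any base, is in capitals, a looser pattern than the AP-1 site TGA(C/G)TCA. Dmkn has 3 annotated starts, of which one lies so close to the first that its window is not repeated, and 3′-end counts do not show which was used.

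Serpinb5: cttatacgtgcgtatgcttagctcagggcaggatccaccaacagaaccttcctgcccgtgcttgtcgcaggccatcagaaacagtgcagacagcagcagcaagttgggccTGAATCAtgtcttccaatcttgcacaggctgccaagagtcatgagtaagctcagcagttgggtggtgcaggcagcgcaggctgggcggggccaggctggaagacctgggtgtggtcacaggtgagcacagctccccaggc
Lgals7: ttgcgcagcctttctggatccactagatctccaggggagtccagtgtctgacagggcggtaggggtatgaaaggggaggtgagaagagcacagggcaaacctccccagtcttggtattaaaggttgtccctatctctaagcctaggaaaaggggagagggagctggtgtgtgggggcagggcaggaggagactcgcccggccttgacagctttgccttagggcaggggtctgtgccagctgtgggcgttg
Dmkn, first start: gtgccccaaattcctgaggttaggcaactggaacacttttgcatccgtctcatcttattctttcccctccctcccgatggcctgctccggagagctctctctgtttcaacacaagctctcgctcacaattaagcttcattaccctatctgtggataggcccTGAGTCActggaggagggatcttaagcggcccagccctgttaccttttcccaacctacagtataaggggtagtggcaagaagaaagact
Dmkn, downstream start: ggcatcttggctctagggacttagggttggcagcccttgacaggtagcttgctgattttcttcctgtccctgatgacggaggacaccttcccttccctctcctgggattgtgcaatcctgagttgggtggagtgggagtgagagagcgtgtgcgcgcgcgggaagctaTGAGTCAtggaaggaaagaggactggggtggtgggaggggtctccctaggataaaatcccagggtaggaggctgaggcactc

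These windows lie at chr1:106860925-106861174 (Serpinb5), chr7:28864136-28864385 (Lgals7), and chr7:30763506-30763755 and chr7:30776155-30776404 (Dmkn). The motif is its own reverse complement, so both strands were searched at once. It occurred once in the Serpinb5 window, as TGAATCA, and once in each Dmkn window, as TGAGTCA. The Serpinb5 letters are thus not the AP-1 site itself. The looser pattern was not among the letters of the Lgals7 window. Of 32851 mouse promoters in the table, 6.749% held it in the same 250 bases. A match is a description of the letters and no sign that a factor bound there.

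Dmkn was at 205 and 281 CPM in E14.5 control members, against 2.83 and 0.282 CPM in E13.5 controls (log2 7.59, SE 0.63, edgeR adjusted p = 0.0114). The E13.5 values rest on 6 UMIs and 1 UMI, so the fitted size depends on them. Without E14.5 control replicate 1 the log2 fold change was 7.89 with an edgeR adjusted p of 0.159, a fit in which the lone E14.5 control is assumed to vary as the E13.5 pair does. Of members, 60.5% and 66.8% carried Dmkn at E14.5, against 2.69% and 0.25% at E13.5, and no E14.5 control member held more than 17 of its UMIs. Collagen-rich cells of the same E14.5 libraries held 35.6 and 43.6 CPM. All cells outside the keratin gate together held 261 and 465 CPM, above the members of the same library. Whether free RNA adds to these values was not tested. Dmkn was higher still in differentiating cells of the gate, at 1471 and 1075 CPM in E14.5 controls. The LOF libraries, which the stage fit did not use, had 185 CPM at E14.5 and 4.66 CPM at E13.5.

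Lgals7 was at 332 and 315 CPM in E14.5 control members, against 49.9 and 47.9 CPM in E13.5 controls (log2 2.80, SE 0.21, edgeR adjusted p = 0.00798). It had 340 CPM in E14.5 LOF members and 122 CPM in E13.5 LOF members, so the E13.5 LOF library stood above the E13.5 controls and below the E14.5 libraries. Collagen-rich cells of the E14.5 controls held 25.9 and 39.6 CPM of Lgals7, and all cells outside the keratin gate together 220 and 317 CPM. Serpinb5 was at 60.5 and 51.0 CPM in E14.5 control members, against 3.77 and 2.25 CPM in E13.5 controls (log2 4.31, SE 0.38, edgeR adjusted p = 0.0114). It was detected in 35.0% and 29.6% of E14.5 control members and in 1.42% and 1.48% of collagen-rich cells there. In the LOF libraries Serpinb5 had 43.5 CPM at E14.5 and 2.33 CPM at E13.5. Its mean log2 CPM was under 5, which is below the limit of the naming rule, and it is named after its values were seen. In cycling basal cells Serpinb5 was at 71.2 and 56.6 CPM in E14.5 controls, against 3.79 and 2.20 CPM in E13.5 controls, and Lgals7 at 265 and 245 CPM, against 43.0 and 44.0 CPM. Dmkn in cycling basal cells was at 218 and 328 CPM in E14.5 controls, against 1.34 and 1.35 CPM in E13.5 controls, so for these 3 genes the E14.5 controls lay above the E13.5 controls in cycling cells as well, a difference not tested there.

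**Figure D3:**
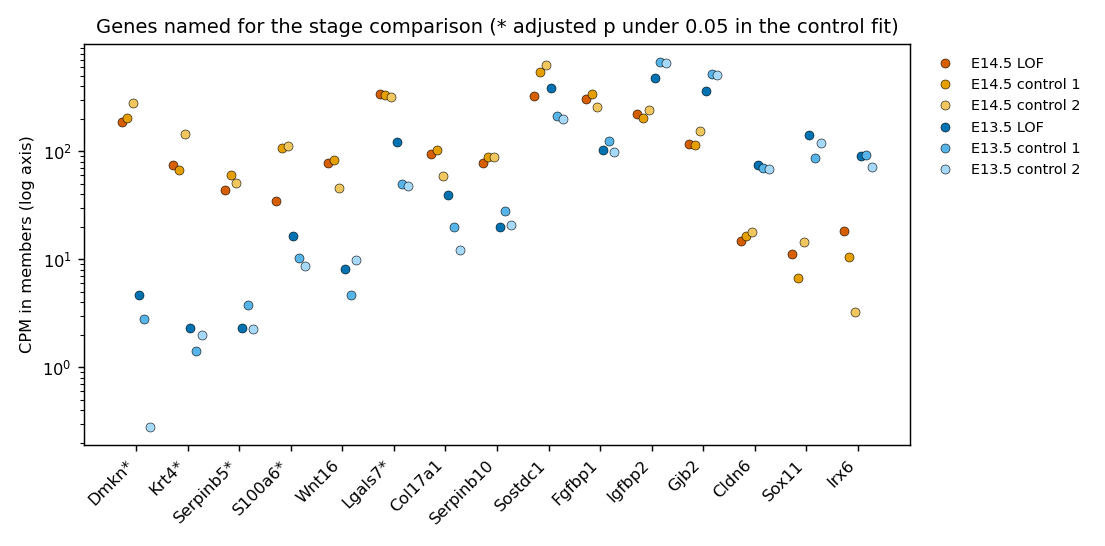
CPM in members of the genes named for the stage comparison, 1 point per library on a log axis, ordered by the fitted log2 fold change. Stars mark the 5 genes past the test, and E14.5 LOF stands to E13.5 LOF as the controls do for each gene except Sostdc1, at 325 CPM in E14.5 LOF against 385 CPM in E13.5 LOF.

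Krt4, a keratin of mucosal epithelia, and S100a6, a calcium-binding protein, rose in the sums mostly through very few cells. Krt4 was at 66.8 and 144 CPM in E14.5 control members, against 1.41 and 1.97 CPM in E13.5 controls (log2 5.98, SE 0.58, edgeR adjusted p = 0.0172). All 148 Krt4 UMIs of E14.5 control replicate 1 came from 1 cell, and 99.2% of those in replicate 2 from 5 cells. S100a6 was at 108 and 111 CPM in E14.5 control members, against 10.4 and 8.73 CPM in E13.5 controls (log2 3.60, SE 0.29, edgeR adjusted p = 0.00798). One cell held 90.8% of its UMIs in E14.5 control replicate 1. S100a6 was detected in 9.42% and 17.4% of E14.5 control members, against 7.53% and 7.25% of E13.5 control members. In E14.5 LOF members 47.1% of Krt4 and 49.3% of S100a6 UMIs lay in the richest cell.

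**Figure D4:**
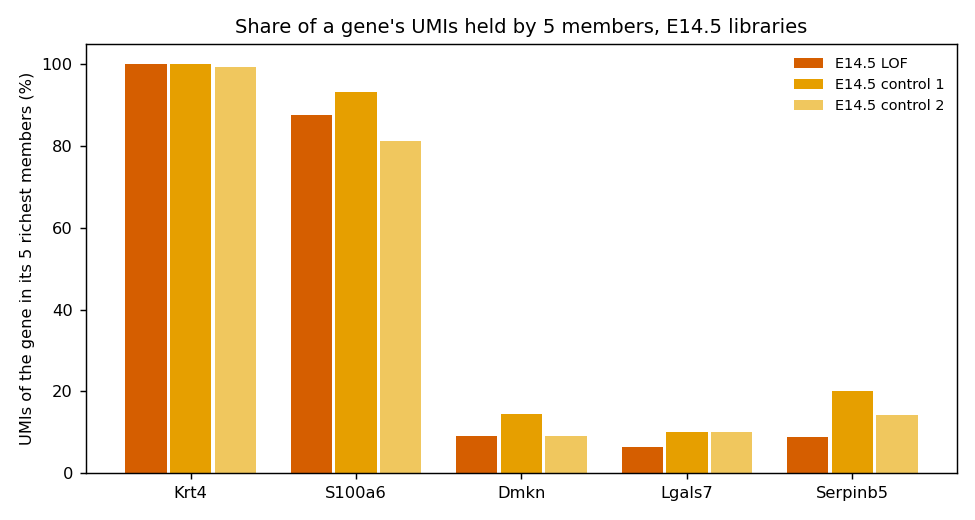
Percent of a gene's UMIs in members that lie in its 5 richest members, for the 5 genes that rose, in the 3 E14.5 libraries. Krt4 reaches 99.2% to 100% and S100a6 81.2% to 93.3%, while Dmkn stays at 9.13% to 14.3%.

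Such cells formed a rare subset within the rule. Members with at least 10 UMIs of Krt4, Krt7, Krt8, Krt18 and Krt19 together, a limit chosen after seeing the data, numbered 3 in E14.5 LOF, 1 and 5 in E14.5 controls, 3 in E13.5 LOF, and 6 and 4 in E13.5 controls, which is 22 of 1867. They held 10 Trp63 UMIs in all, 5 of them in E14.5 control replicate 2 and 5 in E13.5 control replicate 1, and the other 4 libraries had none in these cells. In E14.5 libraries these cells had 5609 to 7368 CPM of the small heat shock protein Hspb1, against 65.9 to 95.2 CPM in the other members. In E13.5 libraries they had 2308 CPM of Hspb1 in LOF and 866 and 3837 CPM in controls, against 134 to 167 CPM in the other members. Krt17 was at 3227 CPM in these cells of E14.5 LOF and at 0 and 220 CPM in those of E14.5 controls, against 101 to 153 CPM in the other members. In E13.5 libraries Krt17 was at 3751 CPM in these cells of LOF and 918 and 3536 CPM in those of controls, against 35.7 to 38.3 CPM in the other members. Trp63 UMIs were absent from these cells in 4 libraries, of which E14.5 control replicate 1 held a single such cell. Of the rule's keratins, Krt5 was higher in these cells than in the other members of every library. In E14.5 LOF it was at 3275 CPM, against 1028 CPM. Krt14 was lower in these cells except in E13.5 LOF, and at 48.2 CPM, against 1613 CPM, in E14.5 LOF. Krt15 was higher in each E14.5 library and mixed at E13.5. The rule selected on these keratins, so their levels do not bear on the basal label. Trp63, outside the rule, was lower in these cells than in the other members of every library. It was at 64.7 CPM, against 236 CPM, in E13.5 control replicate 1, and at 110 CPM, against 198 CPM, in E14.5 control replicate 2. Whether these cells are basal was not tested, and they are described here by their keratins only.

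With these 22 cells left out, 18 genes passed the stage test, 11 higher (0.114% of those tested) and 7 lower (0.0728%) at E14.5, and they included Dmkn, Lgals7 and Serpinb5 of the first 5. S100a6 then had a log2 fold change of 1.22 (edgeR adjusted p = 0.467). Krt4 no longer passed the filter on low counts. The choice of cells fixed this, since it counted Krt4 and took 100% and 99.2% of its UMIs in E14.5 controls. Among the 15 genes that this exclusion added to the calls were the rising Krt17 (log2 2.08, SE 0.24, edgeR adjusted p = 0.0309), a keratin of embryonic and activated epidermis, and Anxa1 (log2 3.08, SE 0.35, edgeR adjusted p = 0.0309), an annexin of stratified epithelia. With all members Anxa1 was at 137 and 150.4 CPM in E14.5 controls, against 42.4 and 18.0 CPM in E13.5 controls. Krt17 with all members was at 152 and 147 CPM, against 67.8 and 64.5 CPM. The left-out cells had held 0% and 2.46% of Krt17 UMIs in E14.5 controls, but 49.3% and 41.0% in E13.5 controls. For Anxa1 these shares were 8.88% and 34.6%, against 56.7% and 46.9%. The exclusion itself thus widened the fold change of both genes. Ptch1, which receives hedgehog ligands and is itself induced by them, had a log2 fold change of 3.89 (SE 0.48, edgeR adjusted p = 0.0434). Ptch1 was at 46.5 and 28.9 CPM in E14.5 control members, against 4.24 and 1.69 CPM in E13.5 controls. Collagen-rich cells of the E14.5 controls held 41.4 and 15.9 CPM of Ptch1. Dermal markers summed to 806 and 798 CPM in those members, against 12669 and 10172 CPM outside the gate. That sum includes the collagen genes that the rule limits. Wnt16, a Wnt ligand, had a log2 fold change of 3.11 (SE 0.43, edgeR adjusted p = 0.0499). Falls were Irx6, an Iroquois homeobox factor (log2 −3.57, SE 0.45, edgeR adjusted p = 0.0463), Sox11, a factor of embryonic progenitors (log2 −3.21, SE 0.42, edgeR adjusted p = 0.0485), and the connexin Gjb2 (log2 −1.84, SE 0.26, edgeR adjusted p = 0.0499). Irx6, Sox11, Gjb2, Wnt16 and Ptch1 each had an edgeR adjusted p of 0.0513 with all members, just outside the threshold of 0.05.

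In the full set of members genes just short of the test lay on both sides. Wnt16 was at 83.1 and 45.6 CPM in E14.5 control members, against 4.71 and 9.86 CPM in E13.5 controls (log2 3.12, SE 0.44, edgeR adjusted p = 0.0513). Irx6 was at 10.4 and 3.25 CPM in E14.5 control members, against 92.3 and 71.8 CPM in E13.5 controls (log2 −3.57, edgeR adjusted p = 0.0513). Sox11 was at 6.77 and 14.5 CPM in E14.5 control members, against 86.2 and 120 CPM in E13.5 controls (log2 −3.17, edgeR adjusted p = 0.0513). Gjb2 was at 113 and 155 CPM in E14.5 control members, against 522 and 510 CPM in E13.5 controls (log2 −1.86, edgeR adjusted p = 0.0513). The groups did not overlap for any of these 4 genes, but the naming rule required this. Of all 9682 genes tested, 15.5% lay wholly higher at E14.5 and 29.2% wholly lower. In the LOF libraries Irx6 had 18.1 CPM at E14.5 and 90.9 CPM at E13.5. Sostdc1, a secreted inhibitor of Wnt and BMP signals, was at 543 and 622 CPM in E14.5 control members, against 210 and 197 CPM in E13.5 controls (log2 1.60, edgeR adjusted p = 0.0513), but at 325 CPM in E14.5 LOF and 385 CPM in E13.5 LOF. Serpinb10, Col17a1 and Fgfbp1 on the higher side, and Cldn6 and Igfbp2 on the lower side, had adjusted p of 0.0513 to 0.0552. Replicates 2, which share an inferred batch, gave log2 values of 7.78 for Dmkn, 2.69 for Lgals7, 4.00 for Serpinb5, 2.10 for Wnt16, −4.10 for Irx6 and −2.97 for Sox11, from CPM with 1 added.

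By gene group, hemidesmosome and basement membrane genes lay mostly on the E14.5 side over all controls. They did so less clearly within replicates 2, the pair that shares an inferred batch. Of 26 listed, 23 passed the filter and none passed the test, 21 of the 23 had a log2 fold change above 0, and their median was 0.62, beside 53.3% of all genes above 0 and a median of 0.04. In the LOF libraries 22 of the 23 were higher at E14.5, with a median of 0.65, beside −0.02 over all genes, and these libraries carry the same inferred batches as the control replicates 1 (21 of 23, median 0.98, beside 0.01). Within replicates 2, 12 of the 23 were above 0, beside 3744 of all 9682 genes, with a median of 0.18 beside −0.11 over all genes. In 12 of the 23 the E14.5 controls lay above both E13.5 controls, beside 15.5% of all genes. Col17a1, the transmembrane collagen of hemidesmosomes, was at 103 and 59.3 CPM in E14.5 control members, against 19.8 and 12.1 CPM in E13.5 controls (edgeR adjusted p = 0.0534). Itgb4, the integrin chain of hemidesmosomes, was at 57.4 and 38.3 CPM in E14.5 controls, against 24.5 and 22.5 CPM in E13.5 controls (edgeR adjusted p = 0.28). Dst, their dystonin plaque protein, was at 400 CPM in E14.5 LOF members, 375 and 93.3 CPM in E14.5 controls, with 74.97 CPM in E13.5 LOF members, and 74.9 and 61.7 CPM in E13.5 controls, so the E14.5 control replicates stood far apart. Fras1, of the basement membrane, was at 145 and 109 CPM in E14.5 controls, against 126 and 124 CPM in E13.5 controls.

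Early differentiation genes outside the rule were mostly too low to test. Of 30 listed, 13 passed the filter, and 1, Dmkn, rose, beside 0.0516% of all genes. Asprv1, a protease of the granular layer, was at 29.8 and 32.5 CPM in E14.5 control members, against 5.65 and 5.07 CPM in E13.5 controls (log2 2.61, SE 0.37, edgeR adjusted p = 0.051). Loricrin, Lor, a protein of the cornified envelope, did not pass (log2 −0.09, SE 0.40, edgeR adjusted p = 0.95), and corneodesmosin, Cdsn, was at 0 in the members of every library. Since genes that passed the filter only through their E14.5 level had to differ, no median of this list is read. Among simple epithelial and periderm genes, 10 of 14 passed the filter and Krt4 alone rose, through the rare cells above, again beside 0.0516% of all genes.

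Regulators of basal identity lay on both sides of 0. Of 33 listed, 29 passed the filter, none passed the test, and 13 were above 0 with a median of −0.12. Klf4, a barrier regulator, was at 51.9 and 48.5 CPM in E14.5 control members, against 18.4 and 11.8 CPM in E13.5 controls (log2 1.82, SE 0.32, edgeR adjusted p = 0.10), and Tfap2b, an AP-2 factor, at 359 and 328 CPM, against 398 and 475 CPM (edgeR adjusted p = 0.64). Sox4 had 392 and 287 CPM in E14.5 controls, against 376 and 175 CPM in E13.5 controls.

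Wnt ligands were transcribed in members at both stages. Wnt6 led, at 333 CPM in E14.5 LOF members, 376 and 451 CPM in E14.5 controls, with 473 CPM in E13.5 LOF members, and 446 and 452 CPM in E13.5 controls. Wnt4 had 187 and 120 CPM in E14.5 controls, against 154 and 74.3 CPM in E13.5 controls, and Wls, the carrier that releases Wnt proteins, 424 and 232 CPM, against 197 and 223 CPM. The list held Wls, Porcn, Rspo1 and Rspo3 beside the ligands. Of its 16 genes 12 passed the filter, none passed the test, and 3 were above 0 (median −0.38, beside −0.03 in the LOF libraries). Of the response genes and inhibitors, 15 of 23 passed the filter and none the test. Lef1, a nuclear effector of the pathway, had 261 and 184 CPM in E14.5 controls, against 172 and 197 CPM in E13.5 controls, and Kremen2, a Wnt co-receptor antagonist, 260 and 259 CPM, against 326 and 398 CPM.

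Of the remaining lists none held a gene past the stage test. Cell contact genes had 15 of 23 above 0, with Perp, a desmosome protein, at 625 and 737 CPM in E14.5 control members, against 530 and 505 CPM in E13.5 controls. Among growth factor signals, 20 of 26 were above 0, and Pdgfa, a ligand for dermal Pdgfra, was at 491 and 477 CPM in E14.5 controls, against 428 and 462 CPM in E13.5 controls. Fetal growth genes had 12 of 19 above 0, with Hmga2, a chromatin protein of embryonic cells, at 242 and 207 CPM in E14.5 controls, against 489 and 582 CPM in E13.5 controls (edgeR adjusted p = 0.10). Fabp5, a fatty acid carrier of epidermis, was at 1930.5 and 1918 CPM in E14.5 controls, against 1123 and 712 CPM in E13.5 controls (edgeR adjusted p = 0.18). Stress and dissociation genes had 13 of 14 above 0 with a median of 1.04, and Egr1, an immediate early gene, was at 47.9 and 117 CPM in E14.5 controls, against 8.95 and 21.1 CPM in E13.5 controls. Notch genes had 5 of 9 above 0, BMP and TGF-beta genes 8 of 12, G1 and exit genes 10 of 15, hypoxia and glycolysis genes 9 of 13, lipid enzymes 5 of 14 and S phase genes 14 of 20, while of 6 keratins of other layers none passed the filter.

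**Figure D5:**
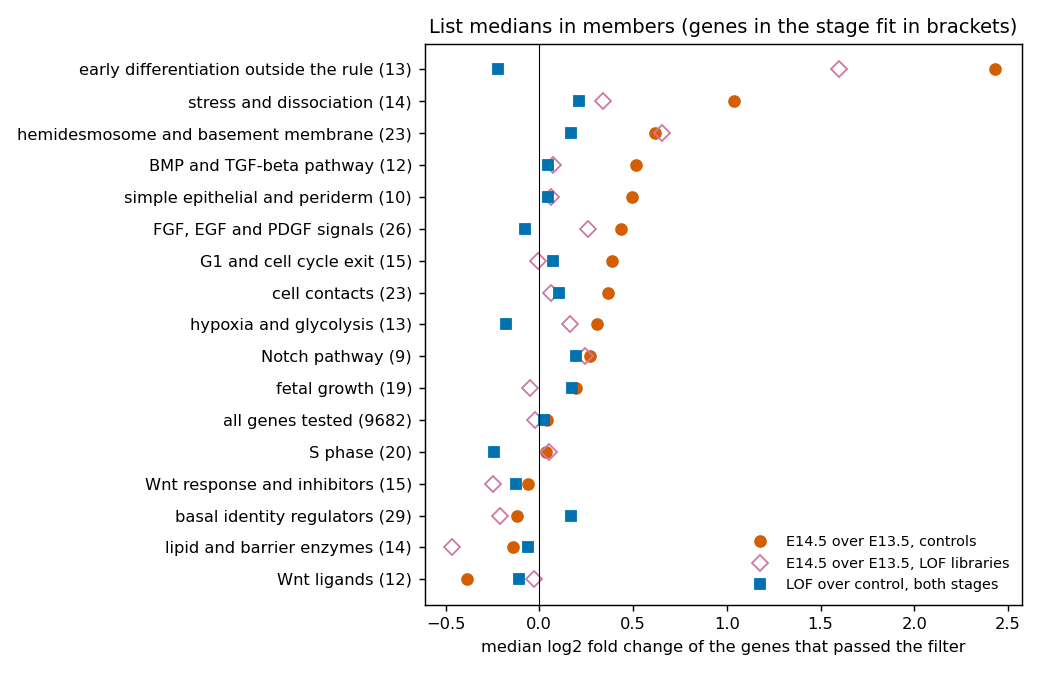
Median log2 fold change of each gene list in members for E14.5 over E13.5 in controls (circles), the same in the LOF libraries (diamonds, CPM with 1 added) and LOF over control at both stages (squares). Hemidesmosome and basement membrane genes lie at 0.62 in controls and 0.65 in LOF libraries, beside 0.04 and −0.02 over all genes tested. Within control replicates 2, which are not drawn alone, they lie at 0.18, beside −0.11 over all genes.

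LOF was compared with control across both stages, to ask whether the epidermis differs in embryos whose Cre was aimed at dermal beta-catenin. No gene outside the rule of 10250 tested passed (0% higher and 0% lower in LOF, edgeR quasi-likelihood with stage as a covariate), 189 had an unadjusted p under 0.05, and DESeq2 called 2, Gria2 and Crabp1. With 1 LOF library per stage, each value within a stage has no replicate. LOF lay above both controls of its stage, at both stages, for 10.8% of the genes and below for 11.4%.

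Ctnnb1, the targeted gene, was at 283 CPM in E14.5 LOF members, against 334 and 353 CPM in E14.5 controls, and at 299 CPM in E13.5 LOF members, against 437 and 357 CPM in E13.5 controls (log2 −0.36, SE 0.16, edgeR adjusted p = 0.99). Counts of 3′ ends do not show whether an exon was deleted. In members the LOF values were below both controls at each stage. In collagen-rich cells, the kind the Cre was aimed at, Ctnnb1 was at 195 CPM in E14.5 LOF, against 175 and 163 CPM in E14.5 controls, and at 248 CPM in E13.5 LOF, against 194 and 167 CPM in E13.5 controls, so transcript counts there were not lower in LOF and do not check the deletion. Gria2, a glutamate receptor subunit, was at 72.8 CPM in E14.5 LOF members, against 28.0 and 15.2 CPM in E14.5 controls, and at 39.6 CPM in E13.5 LOF members, against 17.9 and 13.8 CPM in E13.5 controls (log2 1.56, SE 0.26, edgeR adjusted p = 0.99). Within the inferred batches its log2 values were 1.35 at E14.5 and 1.10 at E13.5. Barx2, a homeobox factor, had 56.2 CPM in E14.5 LOF members, against 40.2 and 36.5 CPM in E14.5 controls, and 157 CPM in E13.5 LOF members, against 90.4 and 109 CPM in E13.5 controls, again short of the test (edgeR adjusted p = 0.99). Txnip, Meis2 and Kcnh7 were the other genes of smallest p on the higher side.

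On the lower side H2afz, a histone variant, was at 1229 CPM in E14.5 LOF members, against 1465 and 1750.0 CPM in E14.5 controls, and at 1694 CPM in E13.5 LOF members, against 2940.1 and 2774 CPM in E13.5 controls (log2 −0.58, SE 0.17, edgeR adjusted p = 0.99). Tpi1, a glycolytic enzyme, had 394.5 CPM in E14.5 LOF members, against 508 and 609 CPM in E14.5 controls, and 395 CPM in E13.5 LOF members, against 615 and 567 CPM in E13.5 controls (edgeR adjusted p = 0.99). Endou, Tubb4b and Ddit4 were named with them. S phase genes leaned the same way, with 1 of 20 above 0 and a median of −0.24, beside 53.3% of all genes above 0 and a median of 0.02, and with none past the test. In 10 of the 20, LOF lay below both controls at both stages, beside 11.4% of all genes. Hypoxia and glycolysis genes had 3 of 13 above 0 with a median of −0.18, and Pgk1, one of them, also marks the inferred batches. Hemidesmosome and basement membrane genes had 17 of 25 above 0 (median 0.17) and basal identity regulators 21 of 30 (median 0.17). The list of Wnt ligands, which is not of ligands alone, had 6 of 15 (median −0.11). Wnt response genes had 7 of 15 (median −0.12), and no gene of these lists passed the test.

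The LOF effect was also compared between stages. Of 10775 genes outside the rule none differed (0%, edgeR quasi-likelihood interaction term), 129 had an unadjusted p under 0.05, and DESeq2 called 1, Rpl29, which had 61.6 CPM in E14.5 LOF members, 1041 and 849 CPM in E14.5 controls, with 2914 CPM in E13.5 LOF members, and 2891 and 1396 CPM in E13.5 controls. The low Rpl29 value was found in each class of the E14.5 LOF library, at 47.4 CPM outside the gate, against 614 to 2300.5 CPM in the other libraries. The muscle gene Myog, at 68.0 CPM in E13.5 LOF members and at most 4.24 CPM elsewhere, rested on a single cell of that library that held 168 of its 175 UMIs. The 7 muscle markers summed to 208 CPM in E13.5 LOF members, and to 4.997 to 25.4 CPM in the other libraries. Haemoglobin transcripts, which cells outside the blood should lack, ranged over 27.6 to 1168 CPM in members, highest in E14.5 control replicate 2.

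Within libraries, members varied most in a few abundant genes. With cells thinned to 3000 UMIs and a mean of at least 0.2 UMIs in every library, 1407 genes were compared by the ratio of variance to mean, which was 1.04 at the median gene. By mean rank over libraries the 15 highest were the nuclear RNA Malat1, Hspb1, Actb, Krt17, Xist, Ifitm3, mt-Co3, mt-Atp6, Cxcl14, Krt15, Sfn, Ptma, Mt2, mt-Co1 and mt-Nd1, of which Krt15 belongs to the rule. Hspb1 had a ratio of 3.48 to 12.5 and Krt17 of 2.22 to 12.8 over the libraries, and the rare cells described above held 14.8% to 49.6% of the Hspb1 UMIs of their library. Cxcl14, a chemokine of skin, had a ratio of 2.06 to 2.93 at a mean of 5.08 to 11.2 UMIs per thinned cell. Pairs among the mitochondrial genes had correlations of 0.29 to 0.56 averaged over libraries, and Hspb1 and Sfn one of 0.20, positive in 6 of 6 libraries. These correlations are across cells of a library and share its depth.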

How the data were processed

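Droplet libraries of embryonic skin were deposited as raw UMI counts per gene and cell barcode, whole numbers with no normalization; per the submitters' processing notes Cell Ranger and Seurat were used with mm10 (GRCm38), and versions are not given in the sources used here. Members of the class, gene lists and named genes were chosen with earlier results of these data known. Counts were summed per library over member cells. Comparisons used edgeR 4.0.16 in R 4.3.3 (robust quasi-likelihood, TMM factors, filterByExpr), adjusted by Benjamini-Hochberg over all genes tested, called at an adjusted p under 0.05; genes of the rule were fitted but not counted. Stage was tested in 4 control libraries, genotype and its interaction with stage in 6. Each SE is the absolute log2 fold change over the square root of its F value. Named genes, besides Trp63, Ctnnb1, eGFP and tdTomato, were the largest past the test with mean log2 CPM of at least 5, groups that do not overlap and at least 1 part in 5 of the CPM outside the gate, or else the 5 of smallest p per direction, and of each list the genes past the test or the 3 of highest CPM; Serpinb5, Asprv1, Klf4, Itgb4, Cdkn1a, Cdkn1c, Myog, Rpl29, Egr1, Lor and the genes called only after leaving out cells were named after their values were seen. Ribosomal protein, mitochondrial, haemoglobin and predicted genes were left out of the rule. Doublets were scored from simulated pairs at 0.8% per 1000 cells and kept in the members except in an alternative. Scripts were tested on simulated data. Promoter sequences are RefSeq's on GRCm38.p6, matched by symbol for 4 of the 5 genes that rose. The replicate numbers come from no label that pairs libraries. Alternatives were DESeq2 1.42.0, its size factors, no filter, each library left out, other gate limits, doublets left out, equal cells per library, and batch terms. Totals of 2123397 to 4202755 UMIs per library over members set the precision, and intervals cover counting error only.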

Additional observations from a re-analysis of the deposited data

Results flagged for a closer look

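eGFP, outside the genes compared, was above both controls of its stage beyond counting error in cells outside the keratin gate, at 211 CPM in E14.5 LOF, against 5.22 and 56.5 CPM in E14.5 controls, and at 258 CPM in E13.5 LOF, against 3.10 and 90.8 CPM in E13.5 controls. In members it did not exceed 4.27 CPM.

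For Dmkn, S100a6, Sostdc1 and Cldn6, all named for stage, the LOF library lay beyond both controls in opposite directions at the 2 stages. The share of all genes that did so was not counted, so these placements are listed and not read as a result. The fitted difference of the LOF effect, E14.5 minus E13.5, was −2.26 on the log2 scale for Dmkn, −2.497 for S100a6, −1.81 for Sostdc1 and −0.34 for Cldn6, and none passed the interaction test. Sostdc1 had 325 CPM in E14.5 LOF members, against 543 and 622 CPM in E14.5 controls, and 385 CPM in E13.5 LOF members, against 210 and 197 CPM in E13.5 controls. Most S100a6 UMIs in E14.5 libraries lay in the rare cells rich in Krt4, Krt7, Krt8, Krt18 and Krt19. Dmkn in E13.5 LOF rests on 12 UMIs, 9 of them in 1 cell. Cldn6 in E13.5 LOF was at 63.5 CPM without the keratin-rich cells, between the E13.5 controls at 57.7 and 66.1 CPM, so its opposite direction rests on those cells.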

How the results depend on the processing

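The count of 5 genes called for stage changed with most settings. It was 4 with doublets left out, 31 with DESeq2 size factors, 91 with DESeq2 and 500 with no filter. With a keratin minimum of 20 UMIs it was 37, with no cycling UMI allowed 19, and with a mitochondrial maximum of 5% 22. It was 38 with 186 cells per library and 3 with no differentiation UMI allowed. Without the cells rich in Krt4, Krt7, Krt8, Krt18 and Krt19 it was 18. It was 591 with the 3-level inferred batch and 436 with a replicate block, whose numbers the labels do not pair. Leaving out 1 library gave 36 to 1760, the highest without E14.5 control replicate 2. The alternatives with no differentiation UMI and without the keratin-rich cells were chosen after seeing the data. Among the 5 called genes, 71 of the 77 gene and setting pairs that were fitted kept the call. Pairs whose gene did not pass the filter are not among the 77, such as Krt4 without the rich cells. With no differentiation UMI allowed the calls were Cav1, Dmkn and Lgals7, so Krt4 and S100a6 lost theirs as well. Among the 10 others named for stage 116 of 160 pairs passed the test that the full fit did not. Lgals7 missed the threshold with the batch term at a log2 fold change of 2.85 (adjusted p 0.354), Dmkn without E14.5 control replicate 1 at 7.89 (0.159), Serpinb5 with no differentiation UMI at 4.32 (0.0558), and S100a6 with the batch term at 3.795 (0.348), with doublets left out at 2.85 (0.173) and without the rich cells at 1.22 (0.467). A stage left with 1 library is assumed to vary as the other does. No called gene changed sign under any alternative in which it was fitted. The genotype count of 0 was 2 with DESeq2, 41 with no filter and 8 with the batch term, and 0 without each library in turn. The interaction count of 0 was 1 with DESeq2 and 13 with no filter, and leaving out 1 library gave 1 to 73, namely 73 and 1 for E14.5 control replicates 1 and 2 and 8 and 4 for the E13.5 ones. The share of members with S phase transcripts followed the depth to which cells were thinned, at 50.2% to 73.1% at 2000 UMIs and 82.8% to 97.5% at 5000 UMIs. With 2 control libraries per stage and 1 LOF library, the spread rests on few pools, and a gene short of the test is not shown to be unchanged.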
